A study of Mus musculus with 24 samples.

Results

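Macrophages grown from the bone marrow of C57BL/6J mice (wild type) were exposed to bacterial lipopolysaccharide (LPS) while the synthetic glucocorticoid dexamethasone was present, and their transcriptome was compared after 4 h with that of macrophages given dexamethasone alone. The comparison uses 6 of the 24 libraries of the study: 3 from cells given 100 nM dexamethasone plus 100 ng LPS (the labels state no volume) and 3 from cells given 100 nM dexamethasone, chosen by their labels and compared across all genes. The marrow came from femurs and tibias of mice aged 8 to 12 weeks and was grown in medium with L929-cell supernatant, a source of M-CSF. The labels do not say whether the hormone was added before LPS or with it, nor whether the replicates came from separate mice or separate dishes, so p-values measure the spread between these libraries, which may be technical. For reference, the LPS response at 4 h without hormone (3 LPS and 3 untreated libraries, none of them shared with the main comparison) and the response at 24 h under dexamethasone (3 libraries with LPS and 3 with hormone alone) were fitted in the same model.

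LPS is sensed by Cd14, Ly96 and Tlr4 on the macrophage surface. Tlr4 signals through Myd88 and Irak kinases to the transcription factor NF-kB and to MAP kinases and, from endosomes, through Ticam1 to Irf3 and type I interferon. Dexamethasone binds the glucocorticoid receptor (Nr3c1), a nuclear receptor that induces genes such as Tsc22d3, Fkbp5 and Dusp1 and is known for restraining inflammatory genes in macrophages. With the hormone in both groups, the comparison asks which parts of the LPS response were still measurable in hormone-treated cells and what LPS did to genes that the hormone itself raises.

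The 6 libraries held between 18602263 and 23401854 counts, against 18326206 to 27908164 over all 24. Levels are given as CPM, counts scaled to a fixed library total after TMM correction (trimmed mean of M-values), as mean ± SD over 3 libraries. The summed level of 10 macrophage markers lay between 21000 and 21700 CPM with dexamethasone alone and between 25100 and 26100 CPM with dexamethasone plus LPS. Of 12 neutrophil markers 11 passed the filter on low counts, and their sum was 67.5 to 79.2 CPM in the hormone libraries and 99.3 to 150 CPM with LPS, with Ly6g at 0 counts in all 6. The sum over 9 dendritic cell markers was 16.7 to 17.6 against 13.2 to 18.4 CPM, and over the 3 of 13 lymphocyte markers that passed it was 6.66 to 9.81 against 5.25 to 7.81 CPM, with Ncr1 and Gzma at 0. Sums over 5 of 8 mast cell and basophil markers went from 1.25 to 2.54 up to 215 to 218 CPM, nearly all of it Hdc (0.407 ± 0.300 against 212 ± 3.90 CPM), while Tpsb2 stayed at 0. Sums over 5 of 10 stromal and endothelial markers went from 1.62 to 2.36 up to 115 to 123 CPM, through Pdgfrb and Kdr, while the collagen gene Col1a1 had 19 and then 2 counts. The part of other cells in the results was not tested. In RNA from whole cultures, fewer cells of a type and less RNA per cell cannot be told apart.

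LPS changed most of the transcriptome of hormone-treated macrophages. Of 14985 genes tested with edgeR's quasi-likelihood test, 5101 (34%) were higher and 5328 (35.6%) were lower (together 69.6%) with dexamethasone plus LPS than with dexamethasone alone at an adjusted p (Benjamini-Hochberg) under 0.05. At least 2-fold changes numbered 2397 (16%) upward and 2772 (18.5%) downward, and the libraries of the groups did not overlap for 10460 genes (69.8%). The median log2 fold change of all genes was -0.03. The scaling sets this balance: the TMM factors were 0.7898 to 0.8229 in the LPS libraries and 1.163 to 1.17 in the hormone libraries, and with library size alone all values shift by -0.54 (log2), which gives 2749 genes higher and 8724 lower, so 24% of the calls are upward in place of 48.9%. For the response without hormone the same setting shifts values by -0.77. Small changes are therefore read relative to these shifts. Counts of list members that rose or fell stand beside the shares of all genes, 34% higher and 35.6% lower.

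The response to LPS in hormone-treated cells largely ran along the response in cells without hormone. Across 14985 genes the log2 fold changes of both comparisons, which share no library and called 69.6% and 72.9% of the genes, had a Pearson correlation of 0.847 and a Spearman correlation of 0.797, with genes not being independent replicates. Without hormone, 2630 genes (17.6%) rose at least 2-fold, and 1942 of them (73.8%) also rose at least 2-fold with it, 335 rose by less, 303 did not pass the test and 50 fell. Of 3249 genes (21.7%) that fell at least 2-fold without hormone, 2049 (63.1%) did so with it, 643 fell by less, 528 did not pass and 29 rose. The median ratio of the log2 change with hormone to that without was 0.815 (quartiles 0.56 and 1.05) for the risen and 0.729 (quartiles 0.453 and 1.02) for the fallen genes. These ratios depend on where the genes are chosen. Chosen by the response under hormone, the medians were 0.995 and 0.93. The interaction test, which asks gene by gene whether the responses differ, called 3122 genes (20.8%) with a higher and 2675 (17.9%) with a lower log2 change under dexamethasone, together 38.7%. At least 2-fold differences made up 6.16% upward and 5.63% downward.

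**Figure D1:**
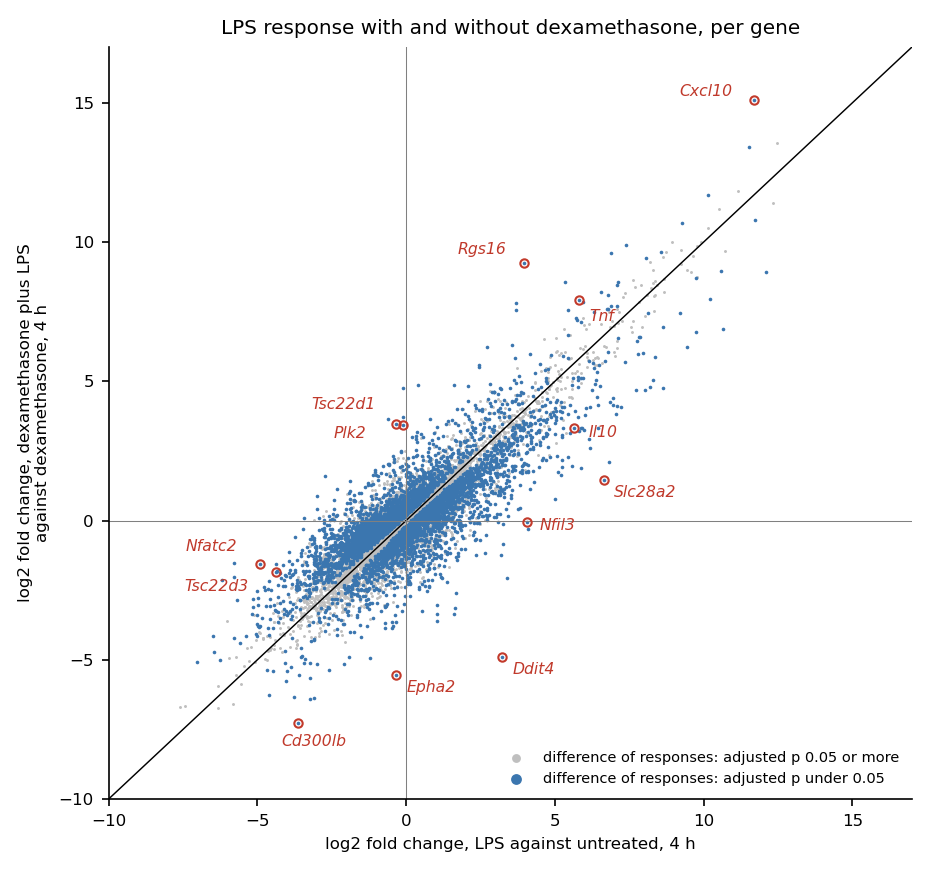
Log2 fold change by LPS at 4 h without dexamethasone (x axis) and with dexamethasone (y axis) for the 13668 genes with over 3 counts in each of the 4 groups; the line marks equal responses and blue points pass the interaction test at an adjusted p under 0.05. Most points follow the line, Cxcl10, Rgs16 and Tnf lie above it, Slc28a2, Nfil3 and Ddit4 lie below it, and Ddit4 sits at 3.23 without and at -4.91 with the hormone.

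Promoter sequences of 5 genes that rose with LPS are shown because their lists held the largest shares of promoters with a match to the recognition sequence of NF-kB or of interferon-regulated factors. The genes were picked with the matches known. The sequences end at the base before the annotated start (RefSeq, build GRCm38.p6) and run 5′ to 3′ on the strand of the gene. Capitals mark every match to the NF-kB (kB) motif in Nfkbia and Cxcl1, to the interferon-stimulated response element (ISRE) in Ifit1 and Gbp2, and to both in Cxcl10, on either strand. The kB motif was searched as GGG, any 2 bases, TT, any base and CC, and the ISRE as 2 copies of GAAA that are 2 bases apart.
Nfkbia (inhibitor of NF-kB), chr12:55492648-55492767, minus strand: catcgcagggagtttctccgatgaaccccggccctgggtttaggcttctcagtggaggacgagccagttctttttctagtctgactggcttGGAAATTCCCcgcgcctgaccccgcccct
Cxcl1 (neutrophil chemokine), chr5:90891125-90891244, plus strand: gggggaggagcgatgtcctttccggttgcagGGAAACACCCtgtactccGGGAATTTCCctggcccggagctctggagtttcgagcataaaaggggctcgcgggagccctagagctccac
Cxcl10 (T cell chemokine), chr5:92348890-92349129, minus strand: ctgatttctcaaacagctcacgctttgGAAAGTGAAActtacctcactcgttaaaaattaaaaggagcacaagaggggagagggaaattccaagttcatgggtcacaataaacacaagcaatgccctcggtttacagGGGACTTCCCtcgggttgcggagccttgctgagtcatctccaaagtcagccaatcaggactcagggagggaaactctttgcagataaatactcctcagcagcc
Ifit1 (antiviral RNA-binding protein), chr19:34640769-34640888, plus strand: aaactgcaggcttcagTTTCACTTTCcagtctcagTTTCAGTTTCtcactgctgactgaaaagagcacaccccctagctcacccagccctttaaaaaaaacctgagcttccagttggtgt
Gbp2 (interferon-induced GTPase), chr3:142620543-142620662, plus strand: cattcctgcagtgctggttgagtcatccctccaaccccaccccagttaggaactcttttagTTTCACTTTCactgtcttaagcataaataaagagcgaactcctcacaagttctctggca
In Cxcl10 the kB match starts 103 bases and the ISRE match 213 bases before the start of the gene, and in Nfkbia the kB match starts 29 bases before it.

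In the 300-base promoters of the RefSeq table (250 bases before and 50 after the start), the kB motif was present for 1480 of 27025 genes (5.48%) and for 6.6% of the tested genes. Among the lists it was present for 9 of 12 NF-kB subunit and inhibitor genes with a promoter in the table (75%), for 5 of 6 CXC chemokines (83.3%) and for 4 of 13 cytokines (30.8%). It was also present for 3 of 12 MHC class I genes (25%), 2 of 9 inflammasome genes (22.2%) and 3 of 17 LPS receptor and kinase genes (17.6%). Lists of other functions held it too, with 4 of 24 cell cycle and 3 of 18 cholesterol and fatty acid genes (16.7% each). Some lists with genes that rose had few or none, with 1 of 6 CC chemokines, 1 of 14 feedback genes, 1 of 24 interferon-stimulated genes, 0 of 5 nitric oxide and arginine genes and 0 of 13 prostaglandin and leukotriene genes. The ISRE motif was present for 3.99% of all and 4.09% of the tested genes, for 13 of 24 interferon-stimulated genes (54.2%) and for 9 of 10 guanylate-binding and immunity-related GTPases (90%). It was also present for 4 of 12 MHC class I genes (33.3%), 2 of 6 CXC chemokines (33.3%) and 5 of 21 ribosomal protein genes (23.8%). Over all tested genes, the 421 with an ISRE match had a median log2 change by LPS of 0.36 with and 0.41 without hormone, and the 679 with a kB match had 0.1 and 0.04, beside -0.05 and -0.11 for the 10293 tested with any promoter in the table. For the glucocorticoid receptor the pattern searched was GNACA, any 3 bases and TGTNC, where N is any base. It was present for 0.537% of all genes and for 3 of 21 glucocorticoid targets (Sgk1, Mt1 and Txnip), and the 35 tested genes with a match had a median change by LPS of -0.59 with hormone and -0.67 without. A match is a run of letters and no measured binding.

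Of 24 genes for the LPS receptor, its adaptors and kinases, 17 rose and 5 fell under dexamethasone, with a median log2 fold change of 0.97 (1.04 without hormone). Cd14, the co-receptor that hands LPS to Tlr4, stood at 420, 440 and 447 CPM in the hormone libraries and at 3177, 3092 and 3076 CPM with LPS. The groups lay apart by a log2 fold change of 2.84 ± 0.06 (SE, adjusted p = 4.1e-31), and the difference from the response without hormone, -0.15 ± 0.08, did not pass (adjusted p = 0.15). Tlr4 itself went the other way, from 108, 108 and 102 CPM to 25, 24.5 and 27.2 CPM. Its fall of -2.05 ± 0.07 (adjusted p = 4.8e-24) was steeper than the -1.24 measured without hormone (interaction -0.81 ± 0.10, adjusted p = 3e-08). Irak3, a kinase-like inhibitor of Tlr signalling, rose from 27.9 ± 0.979 to 572 ± 30.8 CPM, more than without hormone (interaction 0.65 ± 0.10, adjusted p = 1e-06). Irak2 rose by 4.54 ± 0.07, whereas Irak4, the first kinase of the Myd88 complex, fell by 0.47 on the log2 scale.

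All 15 genes for NF-kB subunits and inhibitors rose, with a median of 3.66 (3.55 without hormone). Nfkbia, the inhibitor that holds NF-kB in the cytoplasm, stood at 206, 232 and 230 CPM with dexamethasone alone and at 1889, 1924 and 2007 CPM with LPS. Its libraries did not overlap, and its rise of 3.12 ± 0.06 (adjusted p = 4.6e-33) was smaller than the 5.00 without hormone (interaction -1.87 ± 0.08, adjusted p = 8.1e-21). The starting levels differed, 79.9 ± 3.75 CPM in untreated and 223 ± 14.1 CPM in hormone-treated cells, while the levels with LPS were 2552 ± 149 and 1940 ± 60.6 CPM. Tnfaip3, the ubiquitin-editing enzyme A20, rose from 18.8 ± 2.42 to 2677 ± 160 CPM, and its interaction of 0.24 ± 0.14 did not pass (adjusted p = 0.18), although it did without the third dexamethasone library (0.35, adjusted p = 0.047) and with library size alone (0.48, adjusted p = 0.0068). Nfkbiz rose by 5.92 ± 0.12 and Nfkbie, another inhibitor, by 5.18 ± 0.09.

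Inflammatory cytokines remained strongly inducible in the presence of the hormone. Of 22 on the list 19 passed the filter, 18 of these rose and Osm fell, with a median log2 fold change of 6.88, beside 6.9 without hormone. The filter keeps genes that are high in any of the groups, so this count describes the cytokines that passed and not the whole list. Csf2 did not pass. Gene by gene, the median difference between the responses was -0.48 (-0.25 with library size alone). The interaction was positive for 2 of the 19 and negative for 6, beside 20.8% and 17.9% of all genes. The summed level of the 19 with LPS was 6510 ± 192 CPM under hormone and 15400 ± 580 CPM without it. Before LPS the sums were 63.9 ± 3.21 and 113 ± 8.19 CPM.

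Tnf, the early cytokine of macrophages, stood at 7.03, 9.02 and 8.50 CPM with dexamethasone alone and at 1966, 1968 and 2040 CPM with LPS. Its rise of 7.92 ± 0.09 (adjusted p = 8.9e-38) exceeded the 5.82 without hormone (interaction 2.10 ± 0.11, adjusted p = 2.3e-17). With LPS the level was 1991 ± 42.1 CPM under hormone and 2019 ± 112 CPM without, whereas untreated cells had 35.6 ± 1.59 CPM, so the larger change went with a lower starting level. Il1b, the secreted form of interleukin 1, went from 0.139, 0.0425 and 0.254 CPM to 1839, 1844 and 1775 CPM, a rise of 13.55 ± 0.18 (adjusted p = 1.7e-27). Its level with LPS but no hormone was 6554 ± 486 CPM, and the interaction of 1.10 ± 0.54 did not pass (adjusted p = 0.11), although it did without the second untreated library (1.40, adjusted p = 0.0088). Il6, a cytokine of the acute phase response, had 1 count in the 3 hormone libraries together and stood at 458, 415 and 520 CPM with LPS, a ratio of 32000 with a 95% counting interval from 5750 to 1270000. Il1a reached 249 ± 9.71 CPM from 0.0873 ± 0.0424 CPM, and Il12b, a subunit of interleukin 12, reached 65.0 ± 3.65 CPM from 0.0719 ± 0.0477 CPM. Csf3, which drives neutrophil production, had 1 count with hormone alone and 106 ± 10.1 CPM with LPS (ratio 7250, 95% counting interval 1300 to 286000), beside 14.2 ± 1.35 CPM with LPS alone.

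The anti-inflammatory members did not move alike. Il10, which restrains macrophages through Stat3, stood at 8.19, 7.36 and 7.70 CPM before and at 69.5, 70.5 and 90.2 CPM after LPS. The libraries did not overlap, but the rise of 3.31 ± 0.13 (adjusted p = 4.6e-18) fell short of the 5.65 without hormone (interaction -2.34 ± 0.18, adjusted p = 1.3e-10). Il1rn, the receptor antagonist of interleukin 1, rose by 7.70 ± 0.16 (adjusted p = 9.2e-20), slightly more than the 6.90 without hormone (interaction 0.80 ± 0.22, adjusted p = 0.0077). The larger change went with a lower starting level. Per length of transcript (TPM, scaled to a common total) Il1rn went from 1.98 ± 0.709 to 275 ± 7.47 under hormone. Without hormone it went from 17.1 ± 2.54 to 1130 ± 91.0 TPM, so the level with LPS was lower under hormone. Osm, a cytokine of the interleukin 6 family, fell from 3.01 ± 0.263 to 1.22 ± 0.441 CPM under hormone and rose from 3.92 ± 0.973 to 12.6 ± 0.640 CPM without it (interaction -2.98 ± 0.30, adjusted p = 2.6e-10). Ifnb1, encoding interferon beta, had no count in the 3 hormone libraries and 0.4 ± 0.165 CPM with LPS, at least 9.37-fold higher (against a floor of 3 counts over the group), beside 2.30 ± 0.923 CPM with LPS alone.

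**Figure D2:**
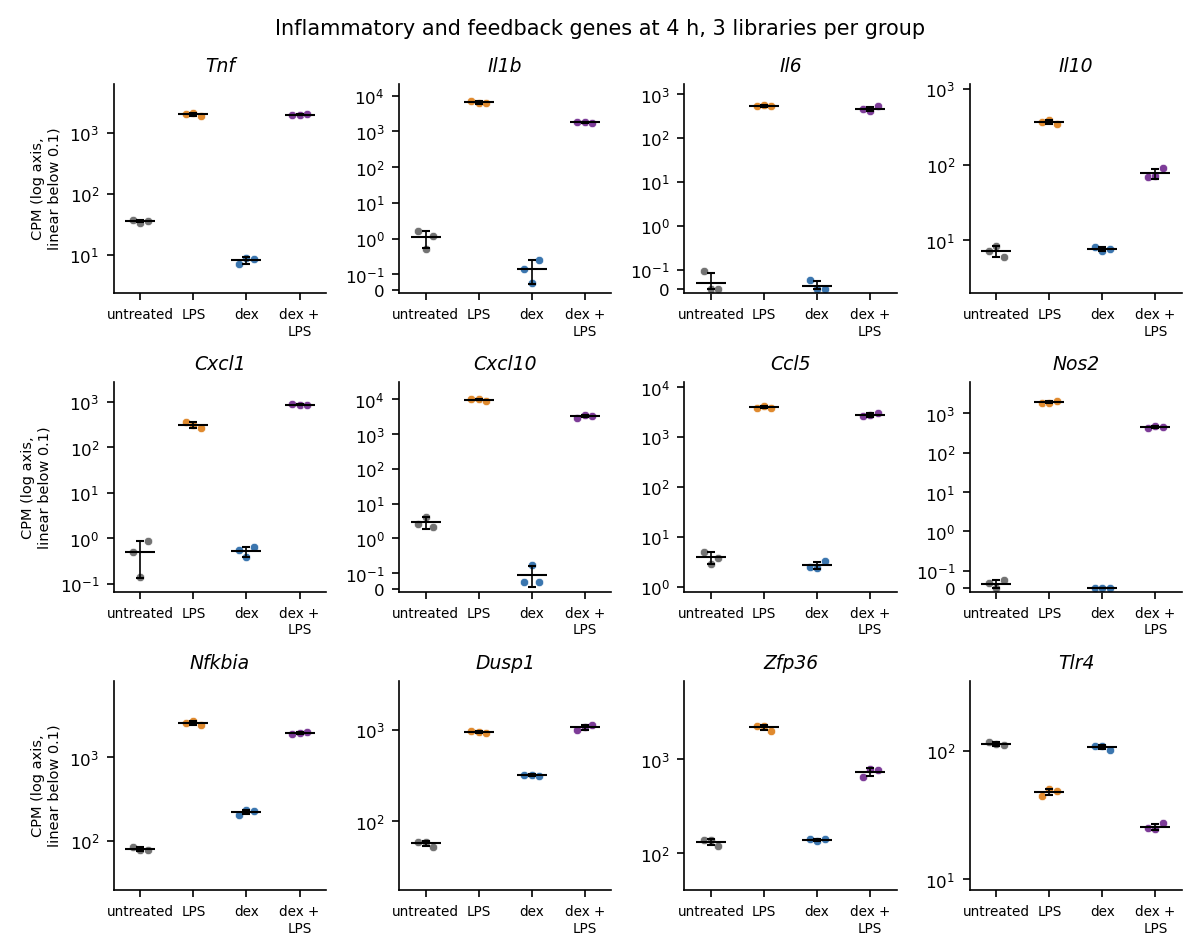
CPM of 12 inflammatory and feedback genes in each library of the 4 groups at 4 h (points, 3 per group), with the mean (bar) and SD (whiskers, not drawn below 0), on a log axis that is linear below 0.1 CPM. Tnf stood at 1991 CPM with and 2019 CPM without hormone after LPS, Il10 reached 76.7 CPM with and 363 CPM without hormone, and Cxcl1 reached 870 and 311 CPM.

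Of 11 CC chemokines, which attract monocytes and lymphocytes, 10 rose and Ccl6 fell, with a median of 5.51 (6.36 without hormone). Ccl5 stood at 2.45, 2.38 and 3.21 CPM with hormone alone and at 2581, 2732 and 3037 CPM with LPS, a rise of 10.01 ± 0.14 (adjusted p = 7.6e-27). Ccl3 rose by 8.10 ± 0.10 under hormone and by 8.10 without it, from 8.88 ± 0.708 and 23.6 ± 2.35 CPM to 2448 ± 104 and 6505 ± 381 CPM. The interaction for Ccl3 was 0.01 ± 0.10 (adjusted p = 0.99). Ccl2, the main monocyte attractant, reached 104 ± 9.12 CPM from 5.29 ± 0.338 CPM, beside 345 ± 30.4 CPM with LPS alone.

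Of 10 CXC chemokines 9 passed the filter, 8 rose and Cxcl14 fell, with a median of 9.73, or 9.68 with genes of few counts at their bound, and 9.22 without hormone. Cxcl10, whose promoter is printed above with both motifs, stood at 0.0463, 0.170 and 0.0423 CPM with hormone alone and at 2980, 3432 and 3387 CPM with LPS. Its rise of 15.10 ± 0.25 (adjusted p = 4.8e-21) was larger than the 11.70 without hormone (interaction 3.40 ± 0.67, adjusted p = 0.00043), although the level with LPS was 3266 ± 249 CPM against 9780 ± 556 CPM without hormone. The untreated cells had 2.97 ± 1.05 CPM. Cxcl1, with 2 kB matches in the printed stretch, stood at 0.555, 0.383 and 0.634 CPM before and at 892, 873 and 844 CPM after LPS. Its level with LPS alone was 311 ± 42.0 CPM, from 0.504 ± 0.368 CPM, and the interaction of 1.43 ± 0.53 (adjusted p = 0.038) lost its call when any of 7 single libraries was left out (0.92 to 1.47, adjusted p up to 0.25 without the third untreated library). Cxcl11 had no count in the hormone libraries and 35.9 ± 7.07 CPM with LPS, at least 822-fold higher.

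Interferon-stimulated genes rose across the list. All 33 interferon-stimulated genes rose at least 2-fold, with a median of 4.76 (5.08 without hormone), and all 14 guanylate-binding and immunity-related GTPases, which attack intracellular pathogens, rose with a median of 6.87 (7.36 without hormone). Ifit1, printed above with 2 ISRE matches, stood at 1.76, 3.10 and 3.30 CPM before and at 1670, 2001 and 1966 CPM after LPS, a rise of 9.42 ± 0.26 (adjusted p = 2.5e-16). Without hormone it went from 16.5 ± 4.20 to 4508 ± 223 CPM, a smaller log2 change of 8.07 (interaction 1.35 ± 0.34, adjusted p = 0.0039). Rsad2, the antiviral enzyme viperin, reached 2564 ± 331 CPM under hormone and 10850 ± 581 CPM without it, and as its start was lower as well the log2 changes were 9.51 and 9.63. Gbp5 rose from 0.613 ± 0.0936 to 2251 ± 159 CPM. Among the 33 genes the interaction was positive for 5 and negative for 7, near the shares over all genes (20.8% and 17.9%). Its median of -0.12 turned to 0.11 with library size alone, so no difference between the responses is read for the list. Members of these families, such as Gbp6 and Ifi205, have near-identical relatives, so their counts are uncertain. Counting ignored strand, so overlapping and antisense genes cannot be told apart.

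Antigen presentation on MHC class I rose less steeply than without hormone. All 14 genes of this list rose, with a median of 1.96 under hormone and 2.77 without, and the interaction was negative for 12 of them (background 17.9%). Tap1, which pumps peptides into the endoplasmic reticulum, stood at 61.8, 65.0 and 62.2 CPM before and at 632, 672 and 766 CPM after LPS. The rise of 3.45 ± 0.07 (adjusted p = 7.3e-30) compares with 4.19 without hormone (interaction -0.74 ± 0.10, adjusted p = 1.1e-07). Nlrc5, the transactivator of class I genes, rose by 3.89 ± 0.09 against 4.70 (interaction -0.81 ± 0.12, adjusted p = 1.3e-06). For 12 of the 14 the interaction was also negative with library size alone, where 1 turned positive. Of 13 class II and co-stimulation genes 8 rose and 1, H2-DMa, fell. Cd40, the receptor for T cell help, rose by 6.58 ± 0.10 against 7.86 (interaction -1.28 ± 0.13, adjusted p = 1.3e-09), whereas Cd274, the inhibitory ligand PD-L1, rose by 7.08 ± 0.10 and 7.11.

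Several feedback regulators rose less steeply under dexamethasone. Of 16 phosphatases, Socs genes and mRNA decay factors 11 rose and 4 fell, with a median of 2.07 (2.48 without hormone). The interaction was negative for 9 (background 17.9%) and positive for 2 (background 20.8%). Dusp1, a phosphatase that switches off p38 and Jnk and a target of the glucocorticoid receptor, stood at 320, 324 and 308 CPM with hormone alone and at 978, 1056 and 1128 CPM with LPS. The rise of 1.73 ± 0.07 (adjusted p = 4.4e-22) was far below the 4.03 without hormone (interaction -2.30 ± 0.10, adjusted p = 1.1e-19), while the levels with LPS were 1054 ± 74.9 and 938 ± 29 CPM. For Zfp36, which binds and destabilises Tnf mRNA, the start was alike (138 ± 2.52 CPM with hormone, 132 ± 10.0 CPM untreated) and the level with LPS was 731 ± 72.7 against 2172 ± 152 CPM. Its interaction was -1.63 ± 0.11 (adjusted p = 3.6e-12). Socs3, the inhibitor of Il6-type receptors, rose from 6.60 ± 1.39 to 1657 ± 84.5 CPM (interaction -2.24 ± 0.20, adjusted p = 4.9e-09). Its relative Socs1 rose by 8.04 ± 0.21, and its interaction of 0.76 ± 0.46 did not pass (adjusted p = 0.2). In the opposite direction Zfp36l2, a relative of Zfp36, fell from 508 ± 27.5 to 12.4 ± 0.332 CPM, and Dusp6, the phosphatase of Erk, from 138 ± 10.2 to 3.35 ± 0.307 CPM.

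Of 24 immediate early and AP-1 genes 12 rose and 6 fell, with a median of 0.29 that turned to -0.25 with library size alone. At 4 h Fos was lower with LPS, 24.4, 34.3 and 27.8 CPM against 128, 132 and 138 CPM, a fall of -2.21 ± 0.11 (adjusted p = 3.5e-14) that was -2.14 without hormone. Myc fell by 1.98 on the log2 scale under hormone and by 0.79 without (interaction -1.19 ± 0.19, adjusted p = 1.5e-05). Maff rose by 4.29 ± 0.15, more than the 2.09 without hormone (interaction 2.20 ± 0.21, adjusted p = 4.6e-11).

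Effector enzymes followed several patterns. Nos2, the inducible nitric oxide synthase, had no count in the 3 hormone libraries and stood at 423, 462 and 454 CPM with LPS, at least 10200-fold higher. With LPS alone it reached 1907 ± 92.4 CPM. Acod1, which makes itaconate, stood at 0.185, 0.978 and 1.14 CPM before and at 8303, 8742 and 8951 CPM after LPS. Its rise of 13.42 ± 0.31 (adjusted p = 1.8e-17) exceeded the 11.51 without hormone (interaction 1.91 ± 0.52, adjusted p = 0.0068), where the level was 10330 ± 128 CPM. Per length of transcript, Acod1 was the sixth and the acute phase gene Saa3 the second most abundant of the genes tested with dexamethasone plus LPS, at 8700 ± 203 and 12000 ± 572 TPM (transcripts scaled to a common total), behind lysozyme (Lyz2, 22200 ± 668). Saa3 was at 3820 ± 281 TPM with LPS alone and at 10.0 ± 2.77 with hormone alone.

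Of 14 genes for prostaglandin and leukotriene synthesis 5 rose and 9 fell. Ptgs2, the inducible cyclooxygenase, stood at 0.185, 0.340 and 0.634 CPM before and at 865, 906 and 1030 CPM after LPS, beside 6125 ± 128 CPM with LPS alone. Its log2 changes were 11.19 ± 0.22 and 10.50 (interaction 0.69 ± 0.46, adjusted p = 0.26). Ptges, the synthase that turns its product into prostaglandin E2, reached 1122 ± 85.0 CPM under hormone and 883 ± 36.8 CPM without. Ptgs1, the constitutive cyclooxygenase, fell by 1.61 and Hpgd, which degrades prostaglandins, by 2.67 on the log2 scale. Of 10 inflammasome genes 8 rose, among them Nlrp3 from 68.5 ± 4.97 to 1685 ± 133 CPM, more steeply than without hormone (interaction 0.77 ± 0.09, adjusted p = 8.8e-09), and Nlrp1b fell by 3.15 on the log2 scale.

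What LPS did to genes raised by the hormone was mixed. Of 24 glucocorticoid targets on the list 23 passed the filter, 13 fell and 8 rose with LPS, beside 35.6% and 34% of all genes. Their median was -0.37 beside -0.03 over all genes, and with library size alone 15 were lower and 7 higher. Ddit4, an inhibitor of mTORC1, stood at 378, 412 and 392.1 CPM with dexamethasone alone and at 14.1, 13 and 12.2 CPM with dexamethasone plus LPS. The groups were far apart, at a log2 fold change of -4.91 ± 0.08 (adjusted p = 1.3e-34). Without hormone LPS raised the same gene from 1.09 ± 0.193 to 10.1 ± 1.15 CPM, a change of 3.23, and the interaction of -8.14 ± 0.16 (adjusted p = 3.9e-30) was the most negative among genes meeting the naming rule. With LPS the levels under and without hormone were 13.1 ± 0.922 and 10.1 ± 1.15 CPM, with no test between them.

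Some other targets kept part of their level, while Zbtb16 fell steeply and Mt1 and Cebpd rose. Tsc22d3, encoding the anti-inflammatory protein GILZ, stood at 974, 969 and 942 CPM before and at 275, 251 and 280 CPM after LPS, a fall of -1.84 ± 0.06 (adjusted p = 1.7e-25). It fell more without hormone, by 4.36 on the log2 scale to 1.80 ± 0.285 CPM (interaction 2.52 ± 0.14, adjusted p = 4.8e-17). Fkbp5 encodes a co-chaperone in the receptor complex. It fell from 1481 ± 4.54 to 531 ± 16.3 CPM, and here the fall was steeper than without hormone (interaction -1.04 ± 0.09, adjusted p = 6.2e-12). The clock gene Per1 moved from 145, 157 and 146 to 117, 114 and 115 CPM, a fall of -0.37 ± 0.06 (adjusted p = 1.4e-06). Klf9, a zinc finger factor, was at 151, 150 and 148 CPM before and at 137, 126 and 136 CPM after LPS, which passed narrowly (-0.18 ± 0.07, adjusted p = 0.033) and did not pass with DESeq2 size factors (adjusted p = 0.059) or when the second library with LPS (0.13) or any 1 of the hormone libraries (0.056 to 0.076) was left out. The falls of Per1 and Klf9 are larger with library size alone, where values shift by -0.54. Per length of transcript Per1 went from 103 ± 4.58 to 54.2 ± 1.62 TPM and Klf9 from 121 ± 1.19 to 72.7 ± 3.28 TPM. How much of their level these genes kept thus depends on the scaling. Zbtb16 fell from 118, 97.1 and 104 CPM to 1.30, 1.70 and 1.94 CPM (-6.02 ± 0.16, adjusted p = 1e-25). In the other direction, the metal-binding Mt1 rose from 248 ± 22 to 2632 ± 99.2 CPM, higher than with LPS alone (480 ± 16.4 CPM), and Cebpd rose by 3.62 ± 0.13. The receptor gene Nr3c1 rose from 68.5 ± 2.25 to 337 ± 22.5 CPM (2.30 ± 0.06, adjusted p = 8.4e-29). Its interaction of 0.19 ± 0.08 did not pass (adjusted p = 0.057), although it did under 5 of the alternatives, among them library size alone (0.42, adjusted p = 1e-05).

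**Figure D3:**
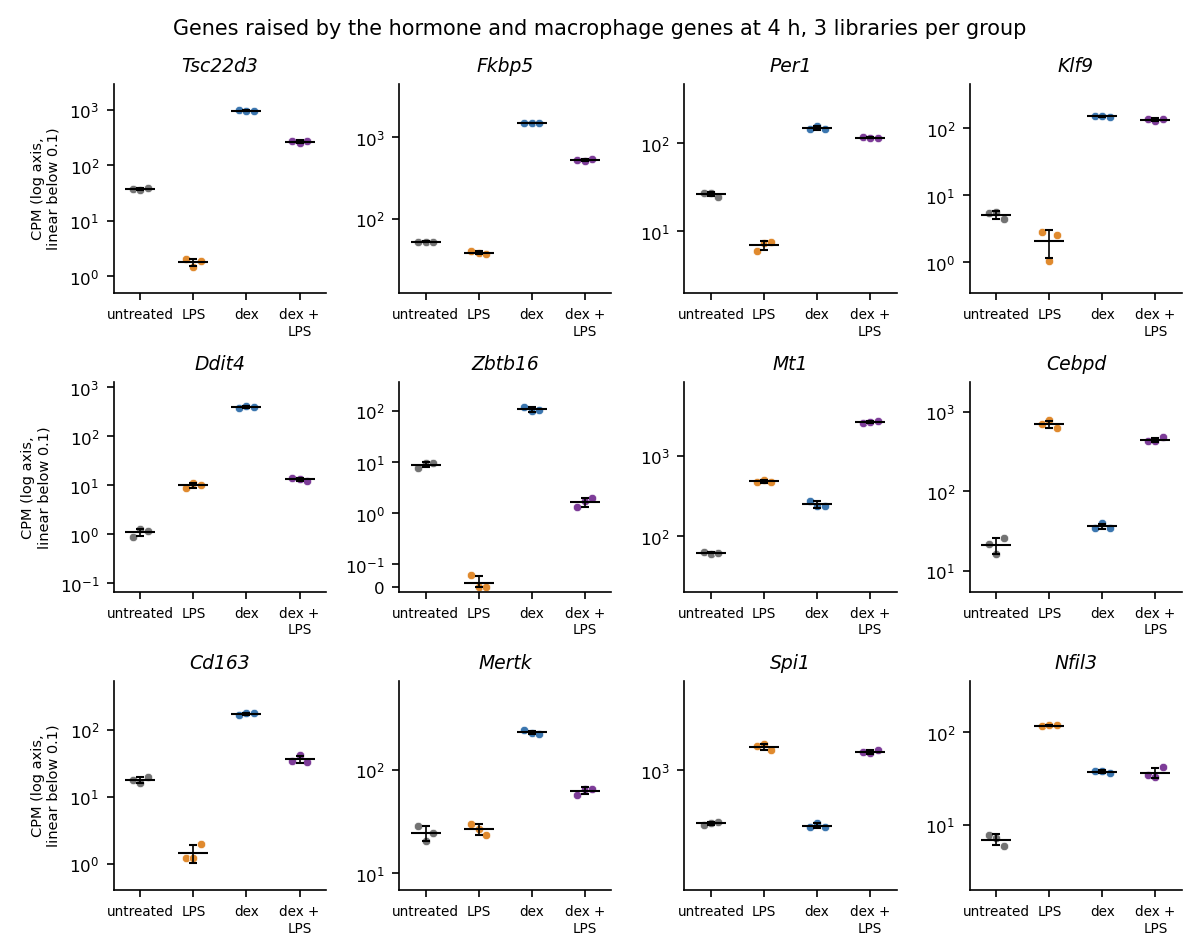
CPM of 12 genes in each library of the 4 groups at 4 h (points, 3 per group), with the mean (bar) and SD (whiskers, not drawn below 0), on a log axis that is linear below 0.1 CPM. Ddit4 and Zbtb16 dropped from 394 and 106 CPM to 13.1 and 1.64 CPM when LPS was added to the hormone, Klf9 went from 150 to 133 CPM, and Nfil3 had 37.3 and 36.4 CPM.

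Of 15 lineage transcription factors 8 rose and 6 fell, with Spi1, the master factor PU.1, rising by 1.85 ± 0.05 and Cebpa falling by 2.87 on the log2 scale. Maf and Irf8, named here after their values were seen, fell to 227 and 31.2 CPM under hormone, from 603 and 141 CPM. Without hormone they were at 914 and 262 CPM with LPS, from 278 and 172 CPM. The change of Irf8 without hormone is smaller in size than the shift there with library size alone (-0.77), so its direction is not read. No test of these values is given.

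Of 20 macrophage surface receptors 7 rose and 10 fell, beside 34% and 35.6% of all genes, and with library size alone 7 were higher and 13 lower. Cd163, the haemoglobin scavenger receptor that glucocorticoids induce, fell from 165, 179 and 177 CPM to 33.9, 42.0 and 33.3 CPM (-2.26 ± 0.08, adjusted p = 6.7e-23). Mertk, with which macrophages bind dying cells, fell from 230 ± 8.85 to 62.7 ± 4.74 CPM, whereas without hormone it was at 24.4 ± 3.90 and 26.6 ± 3.27 CPM (interaction -1.99 ± 0.15, adjusted p = 9.2e-11). The chemokine receptors Cxcr4, Ccr2 and Ccr1 fell by 5.88, 3.99 and 3.24 on the log2 scale. Without hormone Ccr1 changed by 0.54 (interaction -3.77 ± 0.35, adjusted p = 7.6e-08). That is smaller in size than the shift there with library size alone (-0.77). Per length of transcript Ccr1 was at 27.9 ± 1.42 TPM untreated and at 22.3 ± 6.58 TPM with LPS, so its direction without hormone is not read. The scavenger receptor Marco rose from 1.02, 1.74 and 1.69 CPM to 97.5, 104 and 81.8 CPM, beside 16.2 ± 3.57 CPM with LPS alone (interaction 1.82 ± 0.52, adjusted p = 0.0092). Fcgr2b, the inhibitory Fc receptor, rose by 5.75 ± 0.14. Of 15 genes for uptake of apoptotic cells 4 rose, led by the lipid exporter Abca1 (2.72 ± 0.13), and 7 fell, beside 34% and 35.6% of all genes, and with library size alone 3 were higher and 12 lower.

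The 12 largest rises by the naming rule were Nos2, Cxcl10, Shisa3, Il6, Il1b, Acod1, Ptx3, Cxcl3, Sele, Steap4, Mir155hg and Cxcl11. They were taken by the fitted log2 change, and 9 of them had 0 to 2 counts with hormone alone, where that value depends on the prior count of the fit, so their order is not read. Csf3, with the ratio of 7250 given above, is not among them, whereas Cxcl11 is, at a bound of at least 822-fold. Ptx3, a soluble pattern receptor, had 2 counts in the hormone libraries and reached 288, 297 and 359 CPM with LPS (ratio 10800, 95% counting interval 3000 to 89400), beside 33.5 ± 2.44 CPM with LPS alone. Sele, encoding E-selectin, had no count with hormone alone and 45.4 ± 8.91 CPM with LPS, at least 1030-fold higher, beside 3.61 ± 0.696 CPM with LPS alone. Mir155hg, the host transcript of miR-155, had no count before and 40.5 ± 2.76 CPM after LPS. The 12 largest falls were Cd300lb, Slc26a11, Zfp395, Cnr2, Tlr5, Thbd, Gcnt1, Zbtb16, Rasgrp3, Cxcr4, Abcd2 and Mrgpre. Cd300lb, an activating receptor of myeloid cells, fell from 174, 178 and 190 CPM to 0.935, 1.21 and 1.33 CPM (-7.28 ± 0.14, adjusted p = 4.8e-28), beside -3.62 without hormone (interaction -3.66 ± 0.20, adjusted p = 2.4e-15). Cnr2, a cannabinoid receptor, fell from 78.6 ± 3.81 to 0.769 ± 0.334 CPM, and Tlr5, the flagellin receptor, from 42.3 ± 4.77 to 0.508 ± 0.127 CPM. Thbd, the anticoagulant thrombomodulin, fell by 6.35 on the log2 scale, against 3.78 without hormone (interaction -2.57 ± 0.32, adjusted p = 4.3e-08).

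Genes of cholesterol and fatty acid synthesis responded to LPS differently with and without hormone: the interaction was positive for 24 of 26 (background 20.8%) with a median of 1.66, and for 25 with a median of 1.9 with library size alone. Without hormone 1 rose and 20 fell (backgrounds 34.2% and 38.8%), with a median of -0.54. Under dexamethasone 15 rose and 3 fell, with a median of 0.48, but with library size alone 11 were higher and 9 lower with a median of -0.05, so no direction is read for the list under the hormone. Idi1, an isomerase of the sterol pathway, stood at 30.9, 30.3 and 29.4 CPM with hormone alone and at 106, 124 and 97.4 CPM with LPS (1.85 ± 0.17, adjusted p = 1.5e-08). Without hormone it was at 49.0 ± 4.00 and 48.4 ± 8.91 CPM. Mvd, a mevalonate pathway enzyme named after its values were seen, had the most positive interaction of the list, with log2 changes of 1.29 under hormone and -1.29 without (interaction 2.59, adjusted p = 1.7e-16). Scd2, a desaturase, fell in both, from 160 ± 13.1 to 31.3 ± 12.5 CPM under hormone.

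For the cell cycle list the interaction was positive for 22 of 30 genes (background 20.8%, median 0.72), and for 26 with library size alone. Under dexamethasone 5 rose and 17 fell (median -0.46), and with library size alone 1 was higher and 25 were lower. Without hormone 29 fell (median -1.33). Mki67, a marker of cycling cells, rose from 239, 209 and 226 CPM to 374, 430 and 350 CPM (0.78 ± 0.09, adjusted p = 3.8e-08), and it fell by 0.41 on the log2 scale without hormone (interaction 1.19 ± 0.13, adjusted p = 4.8e-08). Ccnd1, the cyclin of G1, fell from 168 ± 8.36 to 10.3 ± 2.92 CPM, by about the same as without hormone (interaction 0.11 ± 0.21, adjusted p = 0.73). Mcm2, a subunit of the replicative helicase, fell from 46.0 ± 1.35 to 11.3 ± 1.38 CPM (-2.02 ± 0.08), less than the -2.85 without hormone (interaction 0.83 ± 0.11, adjusted p = 1.1e-07). Its starting level was 125 ± 3.84 CPM in untreated cells.

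**Figure D4:**
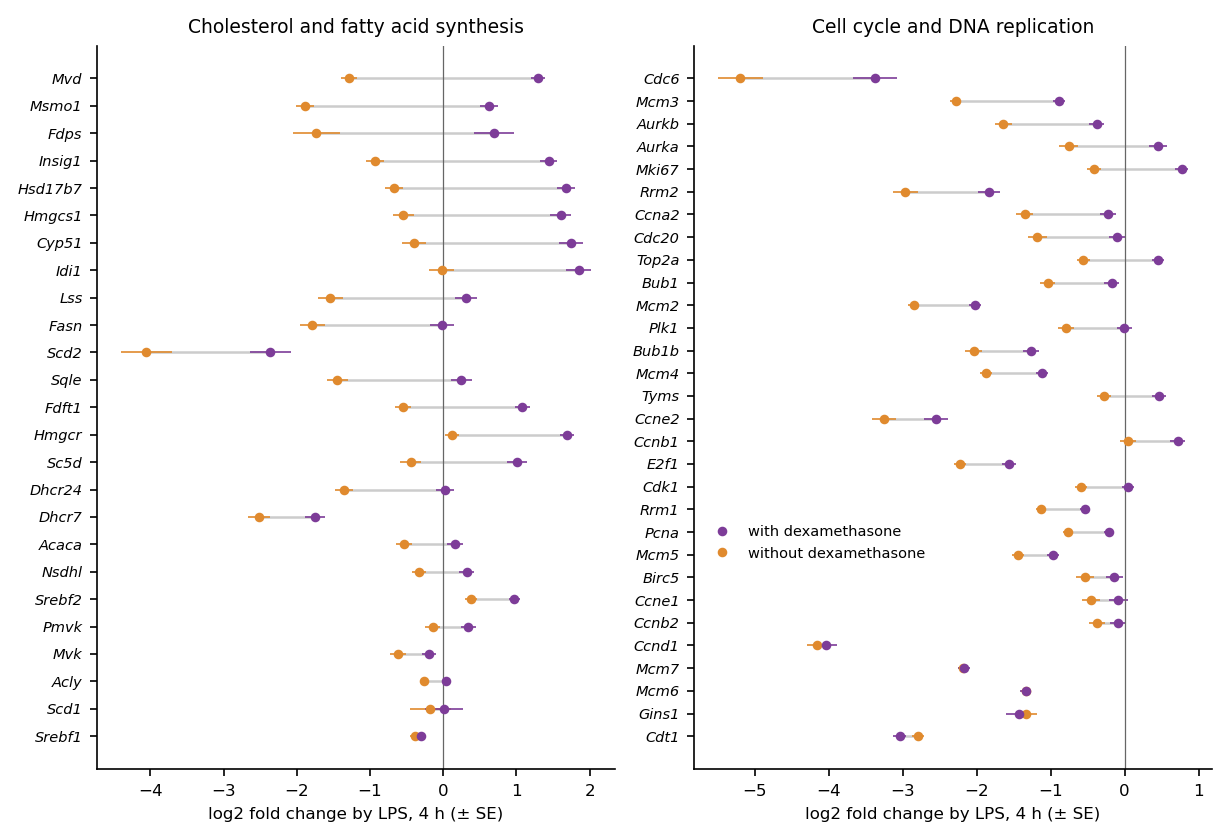
Log2 fold change by LPS at 4 h (points, ± SE) with and without dexamethasone for 25 of the 26 genes of cholesterol and fatty acid synthesis and the 30 cell cycle and replication genes, sorted by the difference. For Mvd the values are 1.29 and -1.29, and for 23 of 25 and 22 of 30 genes plotted the value under dexamethasone is the higher by the interaction test.

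Of 20 glycolysis genes 13 rose and 5 fell, with a median of 0.54 (0.68 without hormone), and with library size alone 9 rose and 9 fell. Pfkfb3, which makes the activator of phosphofructokinase, stood at 54.8, 52.0 and 52.8 CPM before and at 2395, 2835 and 2744 CPM after LPS, a rise of 5.64 ± 0.08 against 6.28 (interaction -0.63 ± 0.10, adjusted p = 3.5e-06). The glucose transporter Slc2a1 rose by 2.33 ± 0.07 against 2.89 (interaction -0.56 ± 0.10, adjusted p = 1.4e-05), and hexokinase 2 (Hk2) by 1.23 ± 0.07 against 2.58 (interaction -1.34 ± 0.10, adjusted p = 3.6e-13). Hk1 fell by 0.44 on the log2 scale under hormone and changed by 0.80 without it (interaction -1.24 ± 0.09, adjusted p = 2.4e-14). The change without hormone is close to the shift there with library size alone (-0.77). Per length of transcript Hk1 was at 59.8 ± 2.80 TPM untreated and at 57.8 ± 4.90 TPM with LPS, so no rise is read without hormone. Hif1a, the hypoxia factor that drives glycolytic genes, rose from 87.2 ± 6.98 to 358 ± 14.7 CPM. Of 61 nuclear-encoded respiratory chain genes 34 rose and 2 fell, by small amounts (median 0.23), and with library size alone 1 rose and 46 fell (median -0.3), so no direction is read from them. The same holds for 30 ribosomal protein genes (median 0.14, and -0.39 with library size alone).

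**Figure D5:**
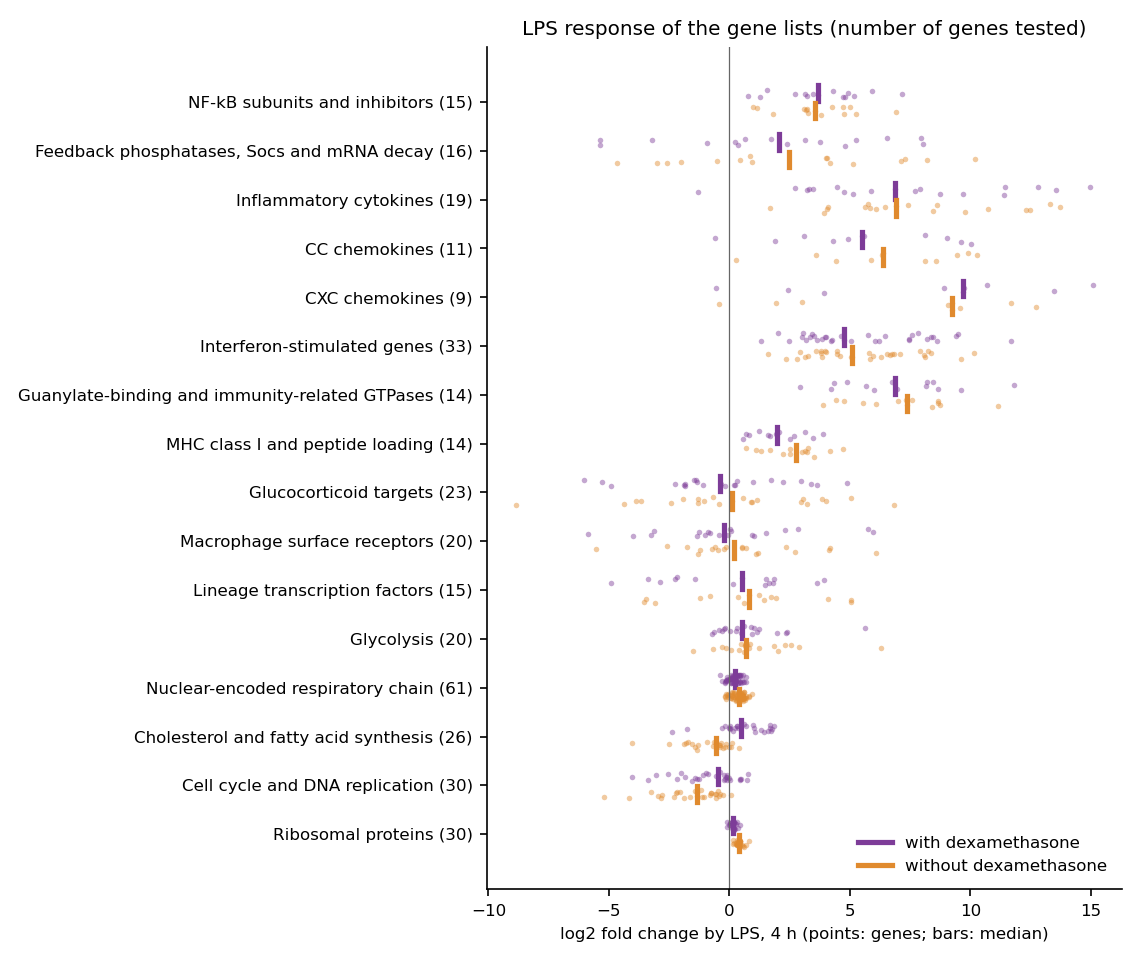
Log2 fold change by LPS at 4 h for the tested members of 16 gene lists (points, with genes of 3 or fewer counts in a group at their counting value or bound) and the list medians (bars) with and without dexamethasone. The medians of the cytokine list nearly coincide (6.88 and 6.9), although its median difference per gene was -0.48. Those of MHC class I differ (1.96 and 2.77), and those of cholesterol synthesis are 0.48 and -0.54 (the first is -0.05 with library size alone).

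The largest differences between the responses, by the naming rule, were of several kinds. Rgs16, which shortens G protein signals, had the most positive interaction: it stood at 0, 0.128 and 0.254 CPM with hormone alone and at 81.7, 84.6 and 84.5 CPM with LPS, against 2.01 ± 0.356 and 31.9 ± 3.41 CPM without hormone (5.30 ± 0.46, adjusted p = 6.3e-11). Tsc22d1, a relative of Tsc22d3, rose from 28.4, 27.9 and 24.8 CPM to 291, 282 and 291 CPM, while untreated and LPS cells had 34.7 ± 3.84 and 32.3 ± 5.11 CPM (interaction 3.52 ± 0.12, adjusted p = 1.2e-21). The other 3 groups thus lay between 27.1 and 34.7 CPM on average. Plk2, a polo-like kinase, was at 8.39 ± 0.773 CPM with hormone alone and at 93.2 ± 5.10 CPM with both agents (3.47 ± 0.15), beside 170 ± 18.7 CPM in untreated cells and 134 ± 21.1 CPM with LPS alone (interaction 3.82 ± 0.19, adjusted p = 2.5e-12). Nfatc2 fell less than without hormone (-1.55 ± 0.09 against -4.90, interaction 3.36 ± 0.17).

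At the other end were mainly genes that LPS raised in hormone-free cells and that under hormone rose less, fell or did not pass the test. Epha2 (interaction -5.2) was an exception. Without hormone it was at 0.831 ± 0.236 TPM in untreated cells and at 0.38 ± 0.284 TPM with LPS. Under hormone it fell from 24.9 ± 4.36 to 0.359 ± 0.0483 TPM. Slc28a2, a nucleoside transporter, rose from 86.6, 83.9 and 85.2 CPM to 204, 261 and 231 CPM, whereas without hormone it went from 9.31 ± 0.748 to 926 ± 45.5 CPM (interaction -5.20 ± 0.10, adjusted p = 3.9e-30). Nfil3, a basic leucine zipper repressor, stood at 38.1, 38.0 and 35.9 CPM and at 34.3, 32.8 and 42.0 CPM with LPS. These libraries overlapped (-0.04 ± 0.09, adjusted p = 0.73, and -0.57 with library size alone), against a rise of 4.07 without hormone (interaction -4.11 ± 0.13, adjusted p = 4.2e-23). Ptger2, a receptor for prostaglandin E2, fell from 23.2 ± 1.40 to 9.72 ± 0.665 CPM under hormone and rose from 1.69 ± 0.327 to 15.1 ± 1.74 CPM without it (interaction -4.44 ± 0.19, adjusted p = 1.3e-20). Jaml, an adhesion molecule, and Pik3ip1, an inhibitor of PI3 kinase, fell from 259 ± 12.3 to 29.6 ± 2.67 CPM and from 50.8 ± 0.721 to 4.14 ± 0.415 CPM, with small rises without hormone (1.66 and 1.04).

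At 24 h the response under dexamethasone had changed in composition. At that time 4429 genes (29.6%) were higher and 4305 (28.7%) lower with LPS, together 58.3%, and 8526 genes (56.9%) differed in response between the times. Of the 2397 genes that rose at least 2-fold at 4 h, 897 (37.4%) did so at 24 h, beside 11.1% of all genes. Of the 2772 that fell, 781 (28.2%) did so, beside 9.72% of all genes. Tnf was at 15.9 ± 1.60 CPM with LPS at 24 h against 1.67 ± 0.295 CPM with hormone alone, a change of 3.26 in place of 7.92. Ccl5 instead changed by 12.62 at 24 h, Acod1 by 11.92 and Saa3 by 9.10. Cd83, a maturation marker, rose at 4 h (4.61 ± 0.11) and fell at 24 h (-6.56), a difference of 11.17 (adjusted p = 5e-23). The matrix protease Mmp13 likewise rose at 4 h (6.93 ± 0.12) and was lower at 24 h (-3.67). Scd2 fell at 4 h (-2.36 ± 0.28) and rose at 24 h (4.74), with 25 of 26 cholesterol and fatty acid synthesis genes higher at 24 h. Of the steep falls, Tlr5 had a change of 0.21 at 24 h that did not pass (adjusted p = 0.37), and Cnr2 was still lower, by -0.75 (adjusted p = 8.7e-12). Il10, up at 4 h, had a change of 0.04 at 24 h (adjusted p = 0.91).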

How the data were processed

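RNA was extracted with RNeasy and sequenced from 24 macrophage cultures in 8 groups of 3, per the labels. The deposited table holds raw read-pair counts per gene from featureCounts 2.0.0, unstranded, with GENCODE M29 per the file headers; the submitters' processing notes name STAR, GRCm38 and mm10, so the alignment build is uncertain and no gene coordinates of the table are used. Of 55357 genes, 25771 had no count and 14601 fell below edgeR's filterByExpr; symbols matched 52081 identifiers.

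All 24 libraries were fitted in edgeR 4.0.16 (R 4.3.3) as 8 group means with TMM factors and robust quasi-likelihood (16 residual degrees of freedom), two-sided, with Benjamini-Hochberg adjustment over 14985 genes and a threshold of 0.05. Groups with no count were set to a floor of 3 counts over the group, and 1 to 3 counts got 95% intervals, which cover counting error only. On simulated data of 13158 genes, 86.6% of 67 genes changed 1.5-fold and 98.5% of 67 changed 2-fold were recovered. The changed genes were not of low count and most genes were left unchanged. The simulation therefore does not cover genes with few counts, nor the scaling where most genes change.

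Gene lists and members were chosen with earlier results of these data known. Genes named are a panel, the 12 largest rises and falls (adjusted p under 0.05, mean of at least 5 CPM, libraries that do not overlap), the 10 largest differences between the 4 h responses in each direction, the 5 largest between the times, and up to 3 rises and 3 falls of each list; 2 such genes are not reported here. Alternatives were DESeq2 1.42.0, other scalings, no filter, a replicate block, only the compared groups and leaving out each library.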

Additional observations from a re-analysis of the deposited data

Results flagged for a closer look

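The response to LPS at 4 h differed with dexamethasone, by the interaction test, in 3122 genes upward and 2675 genes downward. Among the named genes the difference in log2 fold change was 5.3 for Rgs16, 3.88 for Susd2, 3.83 for Egr2, 3.82 for Plk2, 3.52 for Lrrc4, 3.52 for Tsc22d1, 3.4 for Cxcl10, 3.36 for Nfatc2 and 3.25 for Ak4. Without the first untreated library Susd2 did not pass (adjusted p = 0.11). Lower under hormone were Ddit4 (-8.14), Epha2 (-5.2), Slc28a2 (-5.2), Jaml (-4.79), Pik3ip1 (-4.65), Ptger2 (-4.44), Glipr2 (-4.21) and Nfil3 (-4.11).

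Between 4 h and 24 h the response under dexamethasone differed upward in 4175 genes and downward in 4351. The difference, 4 h minus 24 h, was 11.17 for Cd83, 10.6 for Mmp13, -7.11 for Scd2, -6.58 for Tlr5, -5.9 for Cnr2 and -5.84 for Dusp6.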

How the results depend on the processing

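The scaling moved the results most. With library size alone 2749 genes were higher and 8724 lower (4773 at least 2-fold) under dexamethasone, without it 2434 rose and 9779 fell (by 2-fold or more, 1622 and 6346), 5279 and 1566 differed upward and downward between the responses (1475 upward at least 2-fold), and 2655 were higher at 4 h than at 24 h. The same setting reversed mt-Co1 (-0.422), mt-Cytb (-0.425), Tyms (-0.073), Lamp2 (-0.103), Rpl27 (-0.091), Rps9 (-0.167) and Rpl19 (-0.203). It also reversed the medians of the immediate early (-0.25), citrate cycle (-0.44), respiratory chain (-0.3), mitochondrially encoded (-0.41), cholesterol (-0.05), hypoxia (-0.15), unfolded protein (-0.29), ribosomal (-0.39), heat shock (-0.21) and macrophage marker (-0.49) lists, through the common shift of -0.54. The lymphocyte marker median, over 3 genes, was 0 without the third dexamethasone library, 0.03 without the first library with both agents and -1.53 without the third. With genes chosen by adjusted p alone, 41.8% of the risen and 40% of the fallen genes without hormone, and 44.6% of the risen genes under it, changed at least 2-fold in the other setting. Leaving out single libraries gave 4908 to 4999 genes higher and 5089 to 5174 lower. The replicate block gave 5094 higher and 5312 lower. Same-numbered libraries did not deviate together (correlations -0.004, -0.037 and -0.009). With 3 libraries per group this cannot tell whether they share a mouse or a preparation. For the LPS response under dexamethasone, at most 3 of 242 named genes lost their call under any setting other than library size alone, where 7 did and a further 7 reversed; interaction calls are not part of this count. Depth limits genes with few counts in the hormone libraries, for which only bounds are given.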

Other observations

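With LPS at 4 h under dexamethasone, Slc7a11, the cystine importer, rose from 24.8, 22.7 and 19.2 CPM to 955, 1028 and 1006 CPM (5.49 ± 0.20, adjusted p = 2.7e-14), beside 338 ± 15.8 CPM with LPS alone. Fth1, the heavy chain of the iron store ferritin, rose from 3437 ± 114 to 13780 ± 606 CPM, more than without hormone (interaction 0.79 ± 0.07, adjusted p = 3.5e-12). Ftl1, the light chain, named after its values were seen and with near-identical pseudogenes that can share its reads, fell from 2702 ± 102 to 1684 ± 137 CPM (-0.68 ± 0.07, adjusted p = 2.9e-11). Of 14 Nrf2 response genes 6 rose and 6 fell; Gclm and Gclc, the subunits of glutathione's first enzyme, fell by 1.11 and 0.81 on the log2 scale.

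Of 16 genes of the unfolded protein and integrated stress response 8 rose and 7 fell under dexamethasone, with a median of 0.25 that turned to -0.29 with library size alone. Among those that fell were the disulfide isomerase Pdia4 (-0.90 ± 0.06) and the co-chaperone Dnajb9 (-0.84 ± 0.09). Chac1, which degrades glutathione, rose from 0.169 ± 0.194 to 5.20 ± 0.835 CPM under hormone (4.86 ± 0.47, adjusted p = 1.6e-11), while the change of 0.40 without it did not pass (adjusted p = 0.28; interaction 4.46 ± 0.60, adjusted p = 1.4e-07). Asns, the asparagine synthetase, rose by 2.13 ± 0.12 under hormone, beside a change of 0.77 without it (interaction 1.36 ± 0.15, adjusted p = 3.3e-08). With library size alone values without hormone shift by -0.77, so no rise of Asns is read there. Of 15 clock genes 5 rose and 9 fell (2 and 10 with library size alone), among them the output factors Tef (-2.55 ± 0.08) and Dbp (-2.13 ± 0.35), while Clock rose by 0.92 ± 0.08. Ndrg1, a hypoxia-responsive gene, fell from 102 ± 5.51 to 42.1 ± 5.31 CPM under hormone and rose from 27.2 ± 0.260 to 91.1 ± 5.6 CPM without it (interaction -3.03 ± 0.11, adjusted p = 2.2e-22).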
